A study of Mus musculus with 24 samples.

Results

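FOXP1 binding in the E15.5 mouse cortex was described by every peak on chromosomes 1 to 19 in the peak list of the FOXP1 ChIP-seq of that embryonic stage. There were 63281 such peaks among the 64080 of that list and the 315145 of the 6 lists of the series. ChIP-seq pulls down sheared, formaldehyde-fixed chromatin with an antibody and sequences it, and a peak is a place where the reads pile up above background. The 2 ChIP libraries and 2 input libraries behind the list came from cortex of wildtype mice kept on a CD1 background, and the ChIP libraries were made with an antibody against FOXP1 from Santa Cruz. By the methods the replicates were merged before these peaks were called, while the labels attach the list to replicate 1, and it was read here as merged. Each peak has 1 value, no difference between peaks could be set against the spread between replicates, and the intervals given cover counting error only. Cortex is a mixture of cell types, so a higher occupancy in each cell and a larger share of occupied cells cannot be told apart. Binding was measured, not expression.

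FOXP1 is a transcription factor of the forkhead family, whose members recognize DNA through a winged-helix domain and share the core TGTTTAC. It binds as a homodimer or together with its relatives FOXP2 and FOXP4, and is best known as a repressor that recruits corepressors such as CtBP and the NuRD histone deacetylase complex. In the developing cortex it is found in progenitors and in postmitotic projection neurons, and loss-of-function variants of the human gene cause a neurodevelopmental disorder with autism features.

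The forkhead core itself is shown first, in the 200 bp around the summits of the 3 strongest intronic peaks and 2 of the strongest intergenic peaks that held it away from promoters and from exons. The capitals mark the core on either strand, and coordinates are those of GRCm38 (mm10).
Cacng4 intron, chr11:107784286-107784485, plus strand: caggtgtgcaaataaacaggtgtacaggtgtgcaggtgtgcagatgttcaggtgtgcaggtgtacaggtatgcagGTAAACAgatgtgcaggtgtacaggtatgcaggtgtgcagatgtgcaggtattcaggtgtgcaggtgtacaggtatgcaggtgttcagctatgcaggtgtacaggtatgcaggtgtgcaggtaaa
Ddah1 intron, chr3:145790786-145790985, plus strand: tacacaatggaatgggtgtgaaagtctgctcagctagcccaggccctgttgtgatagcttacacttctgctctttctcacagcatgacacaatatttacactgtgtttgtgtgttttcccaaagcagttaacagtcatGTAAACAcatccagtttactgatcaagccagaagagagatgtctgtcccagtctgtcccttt
Gm30563 intron, nearest coding gene Asap1, chr15:64402990-64403189, plus strand: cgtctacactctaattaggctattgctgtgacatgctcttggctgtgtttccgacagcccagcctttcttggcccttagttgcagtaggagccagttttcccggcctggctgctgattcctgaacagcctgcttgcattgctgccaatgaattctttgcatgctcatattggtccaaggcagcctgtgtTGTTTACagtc
Zfp395, intergenic, chr14:65343917-65344116, plus strand: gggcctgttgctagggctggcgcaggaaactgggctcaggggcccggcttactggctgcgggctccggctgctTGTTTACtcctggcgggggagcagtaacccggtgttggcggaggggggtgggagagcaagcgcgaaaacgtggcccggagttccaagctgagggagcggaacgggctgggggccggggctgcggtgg
Noct, intergenic, chr3:51096105-51096304, plus strand: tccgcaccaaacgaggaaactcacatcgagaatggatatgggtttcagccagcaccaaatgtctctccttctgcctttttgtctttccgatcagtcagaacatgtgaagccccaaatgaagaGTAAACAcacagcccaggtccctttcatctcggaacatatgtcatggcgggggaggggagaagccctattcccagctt
The Cacng4 window, in the gene of a calcium channel and AMPA receptor auxiliary subunit, belonged to the highest distal peak of the list (fold enrichment 38.7), but it was built from short repeated units. It held 49 distinct 5-base words out of 196 positions, against 146 to 169 in the other 4 windows. The peaks of those 4 windows were far lower, at 11.6 to 14.2. The 2 intergenic windows are named by their nearest coding gene, with the TSS of Zfp395 14.4 kb and that of Noct 128 kb away.

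Far more of the strongest windows carried other cores. The next 4 windows were chosen after the motif shares given further on were known, and show the ETS core CCGGAAG at the promoters of Cnot10 (a subunit of the CCR4-NOT deadenylase) and Utp3 (ribosome biogenesis) and the NEUROD-type E-box CAGATGG at the highest distal peaks that held it.
Cnot10 promoter, chr9:114640216-114640415, plus strand: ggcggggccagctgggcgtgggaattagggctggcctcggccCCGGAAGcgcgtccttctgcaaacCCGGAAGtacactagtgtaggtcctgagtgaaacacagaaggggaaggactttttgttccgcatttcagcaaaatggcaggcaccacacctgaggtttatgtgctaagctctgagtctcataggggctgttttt
Utp3 promoter, chr5:88554198-88554397, plus strand: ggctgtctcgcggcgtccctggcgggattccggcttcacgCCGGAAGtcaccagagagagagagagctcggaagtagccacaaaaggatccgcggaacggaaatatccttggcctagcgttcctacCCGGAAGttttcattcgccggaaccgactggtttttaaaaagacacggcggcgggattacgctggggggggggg
Kcnq3 intron, chr15:66239273-66239472, plus strand: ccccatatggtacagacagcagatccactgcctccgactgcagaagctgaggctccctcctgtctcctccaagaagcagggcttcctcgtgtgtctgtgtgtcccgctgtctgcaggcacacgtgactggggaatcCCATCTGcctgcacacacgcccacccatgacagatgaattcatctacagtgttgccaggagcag
Distal, nearest coding gene Cd109, chr9:79004722-79004921, plus strand: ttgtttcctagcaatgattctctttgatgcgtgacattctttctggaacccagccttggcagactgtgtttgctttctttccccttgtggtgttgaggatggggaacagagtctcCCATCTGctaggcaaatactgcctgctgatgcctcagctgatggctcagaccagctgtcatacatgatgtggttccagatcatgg
The Cnot10 and Utp3 windows each held 2 copies of the ETS core, and their peaks reached 44.7 and 42.1. The Kcnq3 peak, in the gene of a neuronal M-current potassium channel, reached 18.7, and the peak 389 kb from Cd109 reached 17.1.

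Fold enrichment is the height of a peak at its summit, as reads plus 1 over background plus 1. The pairs of fold enrichment and p-value in the list were met throughout by a uniform background of 6.901 reads, with a largest misfit of 0.000542 in −log10 p, so the reads over each summit could be recovered. They ranged from 18 to 399 over the autosomal peaks, with a median of 31. The background corresponded to 64.5 M ChIP reads in the merged libraries. The same background served every peak, so a height is not a ratio to the input reads at its own place. Differences in input between places were not removed from the heights. No summit in the list exceeded 400 reads, the number that fits a single point if each position and strand is counted once at an extension of 200 bp. Of the autosomal peaks, 298 had at least 200 reads and 87 at least 300, so the highest heights lie close to that limit. The lowest peaks had a fold enrichment of 2.405 and a −log10 p of 3.96.

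Most FOXP1 peaks were low, and the high ones sat at promoters. The median fold enrichment of all peaks was 4.05 (quartiles 3.29 and 5.95) and the median width 440 bp (quartiles 285 and 823 bp). Proximal peaks share 1 base or more with the 2000 bp that precede an annotated TSS (transcription start site), and all others are distal. Proximal peaks numbered 19136, or 30.2% of the list (95% interval 29.9 to 30.6). By the summit alone, 24.4% of peaks lay in promoter sequence, which makes up 6.41% of these chromosomes. A wide peak meets the overlap rule more easily than a narrow one. The median fold enrichment of proximal peaks was 6.96 and their median width 963 bp, against 3.797 and 374 bp for the 44145 distal peaks. Proximal peaks made up 92.4% of the 7092 peaks with a fold enrichment of at least 10 and 97.6% of the 210 with at least 30, and they were all 59 of those with at least 40.

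**Figure D1:**
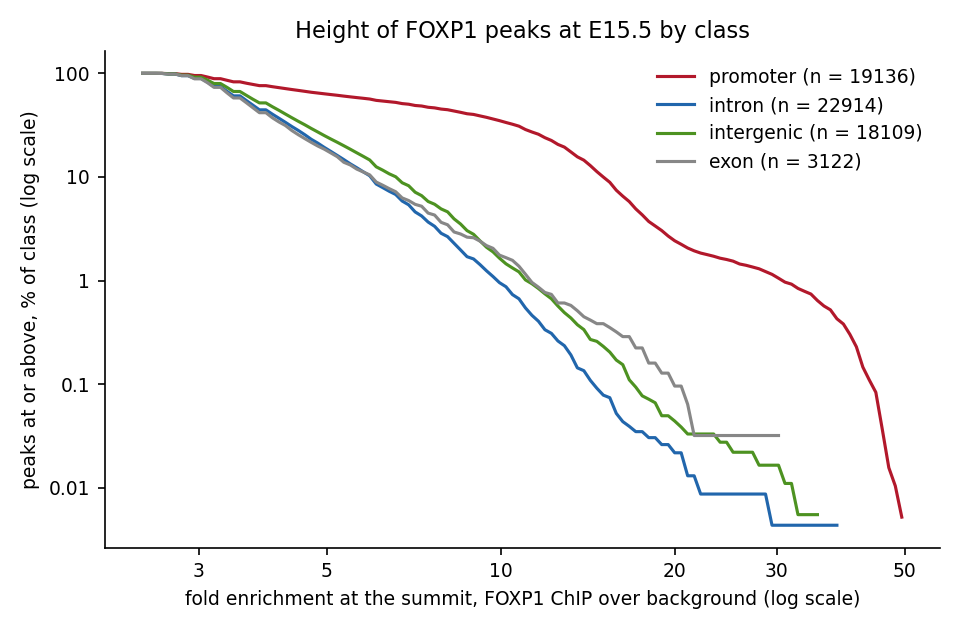
Share of the peaks of each class (y axis, % on a log scale) whose fold enrichment was at or above the value on the x axis (log scale), for proximal peaks and for distal peaks with the summit in an intron, between genes or in an exon. At a fold enrichment of 10, 34.2% of proximal peaks remained against 1.23% of distal ones, and no distal line goes beyond 38.7.

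The change from distal to proximal came in the upper part of the list. In each of the lowest 6 deciles of the peaks by height, 15.6 to 17.6% were proximal. The share was 29.4% in decile 8, 59.6% in decile 9 and 93.4% in decile 10. The share of summits within 100 bp of a TSS went from 3.08% in the lowest decile to 67.7% in the highest. Among proximal peaks alone, 49.6% of summits (48.9 to 50.3) lay within 100 bp of a TSS and 69.3% within 250 bp, at a median position of -26 bp, that is upstream. GC content rose along the same order, from 49.2% of the bases in the summit windows of the lowest decile to 66.1% in the highest.

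**Figure D2:**
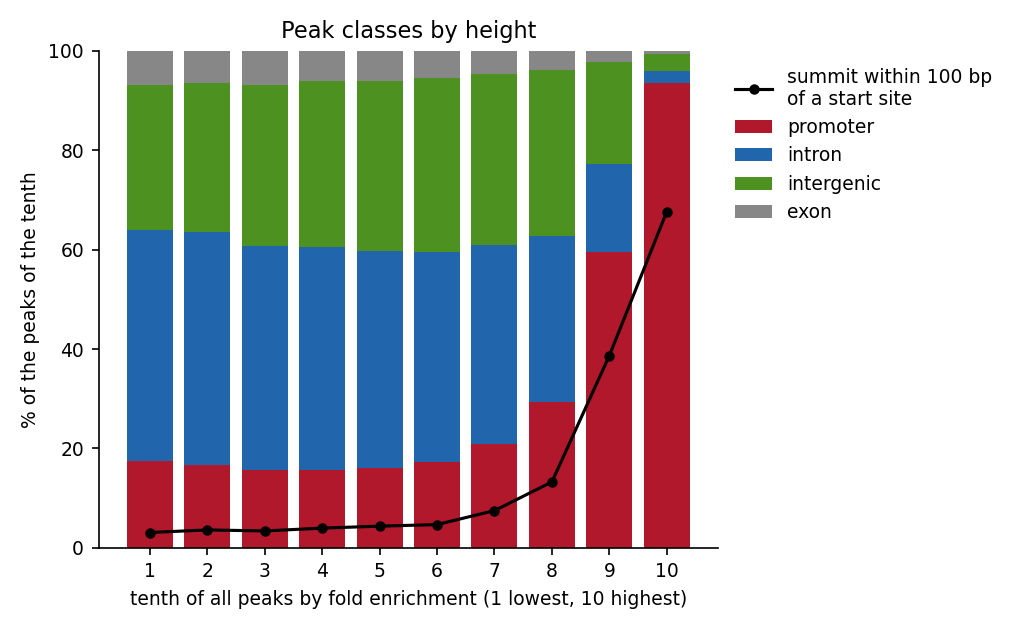
Classes of peaks (stacked bars, % of the peaks of each decile) across deciles of all autosomal peaks ordered by fold enrichment, with the share of summits within 100 bp of a TSS as a line. Intronic and intergenic peaks fill most of the lower deciles, and proximal peaks make up 93.4% of the highest decile.

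The 25 highest peaks were all proximal, and 24 of their summits lay within 200 bp of a TSS. They had 339 to 399 reads over the summit, which gave fold enrichments of 43.03 to 50.6, and were 903 to 3338 bp wide. The highest was at Scn2a, which encodes the voltage-gated sodium channel Nav1.2 of excitatory neurons (chr2:65667815-65670826). It had 399 reads and a fold enrichment of 50.6 (counting interval 45.8 to 55.8), with the summit 0.682 kb upstream of the nearest TSS, which lies inside the gene. Lamp1, a lysosomal membrane protein, followed at 49.2 (44.5 to 54.4), Mrpl44, of the mitochondrial ribosome, at 47.5 (42.8 to 52.5), and Usp30, a mitochondrial deubiquitinase, at 46.7 (42.1 to 51.7). These intervals overlap, so the order at the top is not resolved by the counts. They are Poisson intervals that take no account of the limit of 400 reads, a fold enrichment of 50.8, and their upper ends lie above it.

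Several of the other genes nearest to these 25 summits serve gene expression and RNA. Kmt2a, a histone methyltransferase (44.9), Dmap1, a subunit of histone acetyltransferase complexes (44.8), Med23 of the Mediator complex (44.0), Cstf2t, an mRNA 3′ end processing factor (45.6), Cnot10 (44.7), Dus1l, a tRNA-modifying enzyme (44.7), and Ecd, which takes part in splicing (43.3), belong here. Others serve protein turnover, membranes and metabolism. Kctd5, a ubiquitin ligase adaptor (46.1), Uspl1, a SUMO protease (45.4), Chordc1, a cochaperone of Hsp90 (45.8), Mfsd1, a lysosomal transporter (44.7), Yipf2 of the Golgi (43.3) and Amdhd2 of the hexosamine pathway (43.03) are among them. Drg2, a GTP-binding protein (44.4), Arhgap1, an activator of small GTPases (43.9), Ccdc57 (46.1), Tatdn3 (44.8), Gin1 (44.7), Gm20390 (43.9), Gucd1 (43.4) and Klhdc4 (43.2) complete the 25. At 12 of the 25 the peak overlapped promoters of 2 or more genes, such as Mrpl44 and Wdfy1, or Hmgb1 and Uspl1. The ETS core was in 10 of the 25 summit windows and the forkhead core TGTTTAC in none.

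Of the 20807 protein-coding genes on chromosomes 1 to 19, 13183 had a proximal peak (63.4%), and 7357 had one with a fold enrichment of at least 10 (35.4%). The median height of the highest proximal peak per gene was 10.8 among the genes with one (quartiles 7.09 and 13.8). The share followed the CpG content of the promoter closely. Genes were split into quintiles by the ratio of observed to expected CpG within 500 bp of the TSS. Of the lowest quintile, 420 of 4163 genes (10.1%, 9.21 to 11.0) had a proximal peak, and of the following quintiles 32.1%, 79.8%, 95.9% and 98.9%. Median heights among genes with a peak were 7.21, 6.58, 8.61, 11.3 and 12.8 in the same order. Proximal peaks were less frequent at other kinds of gene, at 1109 of 5209 long intergenic non-coding RNAs (21.3%), 1017 of 2913 antisense RNAs (34.9%), 373 of 2054 microRNA genes (18.2%) and 292 of 8924 processed pseudogenes (3.27%).

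FOXP1 peaks were also common at tRNA genes, which are transcribed by RNA polymerase III and are not in the transcript set used for promoters. In the RefSeq annotation of the same build, 221 of 386 tRNA genes (57.3%, 52.3 to 62.1) overlapped a peak, against 5.88% of all 2000 bp tiles, which are far longer than a tRNA gene. The 159 peaks over tRNA genes had a median fold enrichment of 9.87 and a highest of 32.3. Of these peaks, 99 were distal by the definition used here, with a median of 8.86 against 3.797 for all distal peaks. These features were looked up after the summit windows had been read.

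The gene lists below were set by function and cell type. Their counts are to be read beside the 63.4% of all coding genes with a proximal peak, and beside the 79.8 to 98.9% of the upper 3 CpG quintiles. All 71 ribosomal protein genes had a proximal peak, with a median height of 15.2, and Rps18 (37.0), Rps7 (36.7) and Rpl37 (32.7) were the highest. Of 77 genes of the respiratory chain, 73 had one (median 12.3), led by Ndufb3 (41.5), Ndufs1 (34.0) and Ndufa12 (33.4), all of complex I. The 4 without a peak were Cox7a1, Cox7b2, Cox8b and Cox8c, which include forms of cytochrome c oxidase subunits known from muscle and testis.

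**Figure D3:**
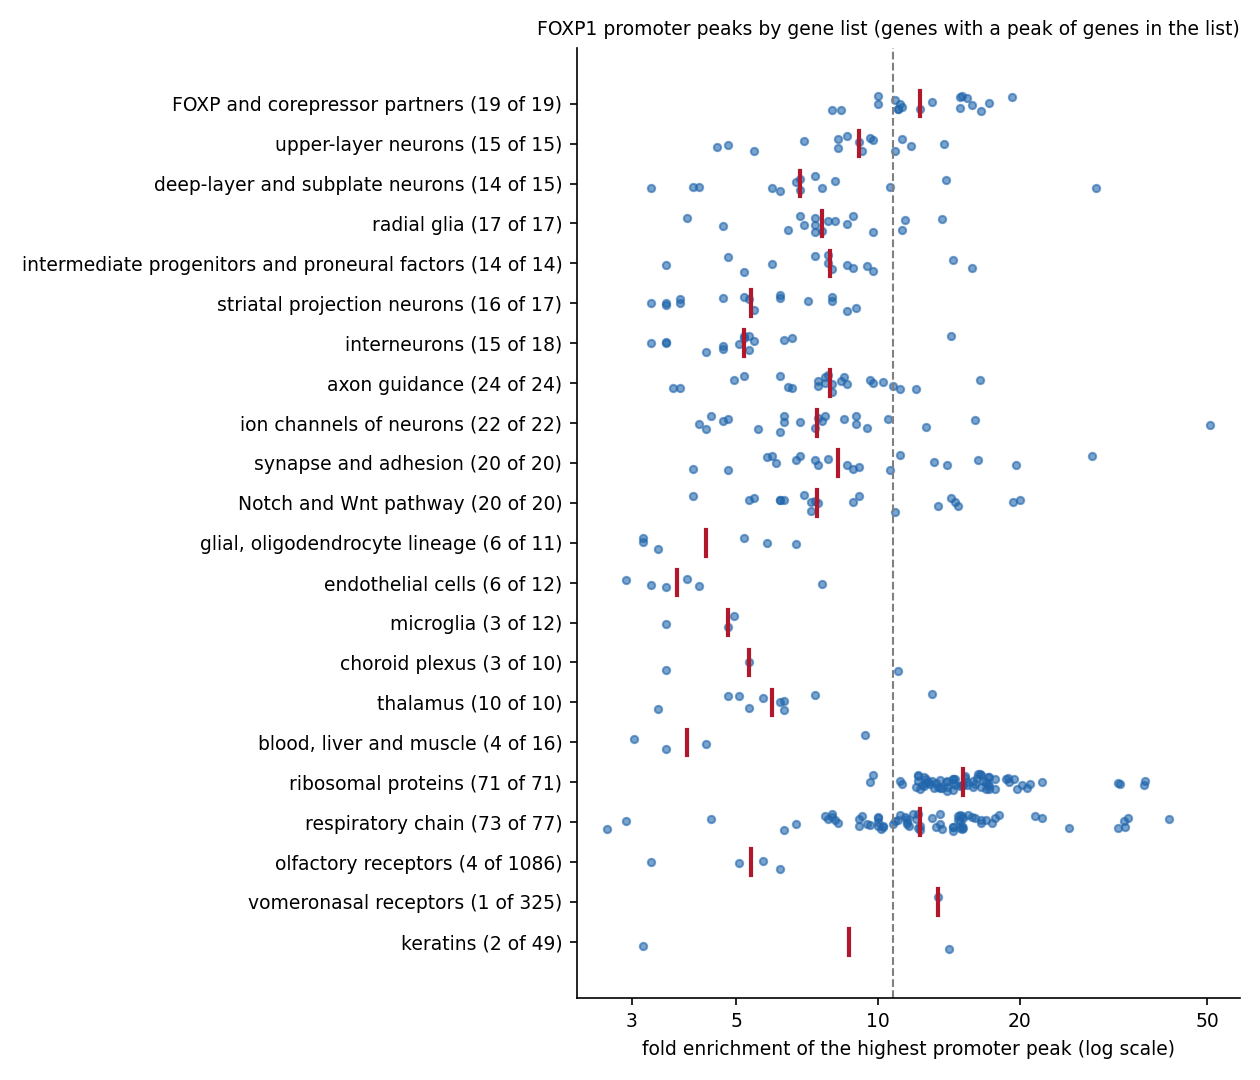
Fold enrichment of the highest proximal peak (x axis, log scale) of each gene with a peak, by gene list. Each point is 1 gene, red bars are medians of the genes with a peak, the dashed line is the median of all protein-coding genes with one (10.8), and the labels give how many of the list's autosomal protein-coding genes had a peak, from 71 of 71 ribosomal protein genes to 4 of 1086 olfactory receptors.

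All 19 genes of the FOXP family and its corepressors had a proximal peak, against 63.4% of all coding genes, and all 19 promoters were in the upper 3 CpG quintiles. The peaks had heights of 7.97 to 19.2 and a median of 12.3. Mbd3 (19.2), Gatad2a (17.2) and Rbbp4 (16.6), all subunits of the NuRD complex, were the highest. Foxp1 itself had a proximal peak of 14.9 (chr6:99520409-99523837), Foxp2 one of 13.0 and Foxp4 one of 12.3. Within the 597 kb of Foxp1, 23 distal peaks had heights of up to 5.70, and 3 of their summit windows held the forkhead core. Foxp2 and Foxp4 had 10 such peaks each, 2 of each with the core, while 3.45% of all distal windows held it, and these counts are small.

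In the lists of cortical cell types the share with a proximal peak was above the 63.4% of all coding genes, and the median heights were below that of all genes with a peak. All 15 upper-layer neuron genes had a proximal peak (median 9.11), led by Pou3f3 (13.8), the LIM-homeodomain factor gene Lhx2 (11.8) and Pou3f2 (11.3). Of 15 deep-layer and subplate genes 14 had one (median 6.83), and Cplx3, of subplate neurons, lacked one. Bcl11b, the determinant of subcerebral projection neurons, stood out in this list with a peak of 29.0 that was 4812 bp wide (chr12:108002003-108006814). Tbr1 followed at 13.9 and Tle4, of corticothalamic neurons, at 10.6. The proximal peak of Tbr1 was 5073 bp wide. All 17 radial glia genes had a peak (median 7.59), with Id4 (13.7), Notch2 (11.4) and Ptprz1 (11.3) the highest. The same held for all 14 intermediate progenitor and proneural genes (median 7.91), with the antiproliferative gene Btg2 at 15.8, Insm1 at 14.4 and Neurod2 at 9.75.

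All 24 axon guidance genes (median 7.91), 22 neuronal ion channel genes (7.40), 20 synaptic and adhesion genes (8.23) and 20 genes of the Notch and Wnt pathways (7.40) had a proximal peak. Efnb2, an ephrin ligand, had the highest of the guidance genes (16.5), followed by the semaphorin receptors Plxna1 (12.02) and Plxna2 (11.1). After Scn2a, the highest channel genes were Cacna1a, of P/Q-type calcium channels (16.1), and Gria2, of AMPA receptors (12.7). The synaptic and adhesion genes ranged from 4.05 to 28.5, and Homer1, a postsynaptic scaffold, was at 19.6. In the Wnt and Notch list, the Wnt coreceptor gene Lrp6 reached 19.997, Ctnnb1, which encodes β-catenin, 19.4, and Rbpj, the nuclear effector of Notch, 14.8.

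In the lists of neurons born outside the cortex the median heights were 5.19 to 5.95. The intervals of the striatal (73.0 to 98.95%) and thalamic shares (72.2 to 100%) lay above 63.4%, and that of the interneurons (60.8 to 94.2%) held it. Promoters in the upper 3 CpG quintiles, where 79.8 to 98.9% of all coding genes had a peak, were found for most of these genes. They numbered 15 of 17 striatal, 10 of 10 thalamic and 16 of 18 interneuron genes. Of 17 striatal projection neuron genes 16 had a proximal peak (median 5.38), with Meis2 (8.99) and Meis1 (8.61) the highest and Rgs9 and Pde10a next at 7.97 each. Tac1, which encodes substance P, lacked one. Of 18 interneuron genes 15 had one (median 5.19, range 3.29 to 14.3), among them Dlx1 (6.58) and Prox1 (6.33). Lhx6, Nkx2-1 and Sst, of the medial ganglionic eminence lineage, lacked one. All 10 thalamic genes had one (median 5.95), led by Foxp2, Tcf7l2 (7.34) and, at 6.33 each, Rora and Prox1. Foxp2, Lef1, Tcf7l2, Calb2 and Prox1 stand in another list too, so the lists are not independent.

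The lists of glial and endothelial genes had shares whose intervals held the 63.4% of all coding genes, and the microglial, choroid plexus, blood, liver and muscle, receptor and keratin lists had intervals below it. Of 11 glial genes 6 had a proximal peak (54.5%, 28.0 to 78.7; Pdgfra 6.71, Gfap 5.82 and Mbp 5.19 the highest), and Aldh1l1, Cspg4, Mog, S100b and Sox10 had none. Of 12 endothelial genes 6 had one (interval 25.4 to 74.6%; Egfl7 7.59, Kdr 4.18, Flt1 3.92), of 12 microglial genes 3 (among them Tmem119 at 4.81 and C1qc at 3.54), and of 10 choroid plexus genes 3 (Foxj1 11.0, Enpp2 5.32, Otx2 3.54). Of 16 genes of blood, liver and muscle 4 had one, among them Actn3 at 9.37 and Ckm at 3.54. Of 1086 olfactory receptor genes 4 (0.368%) had one, with Olfr325 at 6.20, Olfr285 at 5.70 and Olfr459 at 5.06. The single one of 325 vomeronasal receptor genes was Vmn1r4, at 13.4. Of 49 keratin genes, Krt10 (14.2) and Krt87 (3.16) had one. The CpG content of the promoters went along with these counts in some lists and not in others. A promoter in the upper 3 quintiles of CpG content was found for 1 of 12 microglial, 1 of 16 blood, liver and muscle and 1 of 1086 olfactory receptor genes, and for 15 of 17 radial glia and 13 of 15 upper-layer genes. It was also found for 11 of 49 keratin genes, of which 2 had a peak, and for 6 of 10 choroid plexus genes, against 3 with a peak. Only 10 of 20 synaptic and adhesion genes and 3 of 11 glial genes had such a promoter, while 20 and 6 had a peak. The part of CpG content in the difference between lists was not tested.

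Of the 44145 distal peaks, 22914 (51.9%, 51.4 to 52.4) had the summit in an intron and 18109 (41.0%, 40.6 to 41.5) between genes. Introns make up 42.98% of the bases outside promoters and intergenic sequence 52.4%. Summits in coding exons (2.50%), untranslated exons (2.24%) and exons of non-coding transcripts (2.34%) were few, while these classes hold 1.30%, 1.44% and 1.85% of the bases. Intergenic peaks were slightly higher than intronic ones (median 3.92 against 3.67), and 280 of them reached a fold enrichment of 10, against 206 intronic peaks. Along the deciles of distal peaks by height, the intronic share fell from 56.9% to 43.4% and the intergenic share rose from 34.6% to 50.4%. The median distance of a distal summit to the nearest TSS of a protein-coding gene was 28.4 kb. Of the distal peaks, 27.9% lay within 10 kb, 34.6% at 10 to 50 kb and 20.6% at 100 to 500 kb.

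The strongest intronic peaks after the one at Cacng4 were in Zfp13, a zinc finger gene (29.4, 6.58 kb from its TSS), and 4.70 kb upstream of Map1lc3b, of the autophagosome (21.8). Next came peaks in introns of non-coding genes 5.18 kb from Gpr84 (20.9) and 30.2 kb from Rpusd4 (20.6), the latter with its whole summit window repeat-masked. Another was in Tmem132d (19.7), and its nearest coding TSS was that of Glt1d1, 187 kb away. Kcnq3 (18.7), an antisense transcript with Plcb4 as nearest coding gene at 118 kb (17.97), a further peak in Cacng4 (16.96) and Prdm2, a histone methyltransferase gene (16.6), followed. One of these 10 summit windows held the forkhead core and 1, at Kcnq3, the NEUROD E-box.

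The strongest intergenic peak stood 229 kb from the TSS of its nearest coding gene, Bcl11a, which encodes a zinc finger factor and BAF complex subunit of cortical neurons (chr11:24369774-24372802, 35.7, counting interval 31.7 to 40.1). It was 3029 bp wide. The next was 55.8 kb from Ezh2, of the Polycomb complex (32.7), then came one 251 kb from Ccdc54 (30.6, 57.0% of the summit window repeat-masked), and, further down, one 76.7 kb from the chromatin remodeler gene Chd2 (24.8). Peaks with Ptma (23.7), Axin2, a feedback inhibitor of Wnt signaling (20.9), Foxk1, a forkhead factor gene (19.997), Nfatc4 (19.6) and Arid1b, another BAF subunit gene (18.9), as nearest coding gene were also among the 10 highest. They lay 8.13 kb (Nfatc4) to 86.1 kb (Arid1b) from those TSSs. None of the 10 windows held the forkhead core or the NEUROD E-box, and 3 held the ETS core. With the transcripts of RefSeq, 2 of the 10 intergenic peaks (those named by Ezh2 and Arid1b) and 2 of the 10 intronic ones (Plcb4 and Prdm2) were at promoters. The same held for 11.2% of the 500 highest distal peaks and 4.34% of all distal peaks. The highest summit in a coding exon was in Tbr1, the T-box factor of deep-layer neurons (21.5, 5.96 kb from its TSS). It was named after its value was seen.

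Distal peaks were unevenly spread over genes. At least 1 distal peak was nearest to 9532 coding genes (45.8%), and 1186 genes with 10 or more held 49.5% of all distal peaks. Gse1, a coregulator gene, had 127 distal peaks, 125 of them inside the gene. Auts2, a neurodevelopmental gene linked to Polycomb, had 112, Celf2, a splicing factor gene, 105, Zfp608 104, Tcf4, of the E-protein family, 102, and the nuclear factor I gene Nfib 94. Tenm4 (91) and Tenm2 (63), which encode teneurin adhesion molecules, Gm26897 (79) and Sox5, of deep-layer neurons (58), made up the first 10. Since genes differ in the length of sequence that is nearest to them, the peaks were also set against it. All coding genes together had 17.9 distal peaks per Mb. Gse1 had 338, Gm26897 190, Nfib 116, Tcf4 111 and Zfp608 81.1, while Auts2 (57.8), Celf2 (48.1), Sox5 (42.96), Tenm4 (40.5) and Tenm2 (22.9) were nearer to the overall value. These peaks were low, with medians of 3.29 to 3.92 per gene.

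On the same scale, intermediate progenitor and proneural genes had 76.9 distal peaks per Mb, radial glia genes 41.6, Notch and Wnt genes 36.5, upper-layer genes 35.4 and FOXP and corepressor genes 34.6. Deep-layer genes had 27.3, thalamic genes 25.7, microglial genes 25.2, interneuron genes 23.9, axon guidance genes 22.8 and striatal genes 19.6. Ion channel (15.01) and synaptic and adhesion genes (14.3) were below the overall value, as were endothelial (13.8), choroid plexus (12.8), keratin (11.1), respiratory chain (10.8), blood, liver and muscle (6.99), olfactory receptor (1.65) and vomeronasal receptor genes (0.432). The 71 ribosomal protein genes had 39.7, and the 11 glial genes, of which 5 lacked a proximal peak, 39.4. Among the 3 members with the highest proximal peaks of each list, Pou3f3 (57 distal peaks), Efnb2 (46), Meis2 (46) and Id4 (39) had the most.

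When distal peaks at most 12.5 kb apart were joined, 1298 clusters of 5 or more peaks held 9835 distal peaks (22.3%), and 15741 peaks (35.7%) stood alone. This number depends on the settings, at 575 clusters with a gap of 5000 bp, 2016 with 25000 bp and 38 among the peaks of −log10 p 15 or higher. The largest cluster was in Gse1, with 77 peaks over 173 kb and a highest fold enrichment of 8.86, and a further 31 peaks over 91.1 kb formed another cluster in the same gene. Clusters of 73 peaks in Tcf4, 48 around Nfix, 47 in Flrt1 and Macrod1, and 37 at Pipox, Sez6 and Myo18a were also among the 8 largest. A cluster of 49 peaks over 157 kb at Cwc22, a splicing factor gene, had the highest median of the 8 (4.68) and lay mostly between genes. No local background was used in the peak calling, and the number of copies of this region in the mice was not tested.

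FOXP1 peaks were compared with elements of known enhancer activity. RefSeq lists 617 elements of the VISTA collection on chromosomes 1 to 19, which were tested for activity in transgenic mouse embryos, with a median length of 2436 bp. For the human elements of this collection, the paper gives activity at an earlier embryonic stage than the E15.5 of the peaks. A FOXP1 peak overlapped 117 of the 166 elements active in forebrain (70.5%, 63.1 to 76.9), 109 of them by a distal peak, and 67 of 100 active in midbrain or hindbrain but not in forebrain (interval 57.3 to 75.4%). The share was 37.8% (29.6 to 46.8) for 119 elements of limb and not brain, and 24.4% (17.8 to 32.6) for 127 of heart and neither brain nor limb. Of all 2000 bp tiles, 5.88% overlapped a peak. The remaining 105 elements, of other tissues, had a share of 44.8% (35.6 to 54.3). The intervals of the 2 brain groups overlap each other and lie above those of the 3 other groups. The element groups differ in length, with medians of 2824 bp for forebrain and 1910 bp for heart. The highest distal peaks over forebrain elements included those on mm1496, 50.8 kb from Tob1 (14.05), and on mm1295, 72.6 kb from Irf2bp2 (11.9), which were chosen by height. The VISTA elements were looked up after the rest of the list had been described.

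Exact matches to 18 short cores were counted on both strands of the 200 bp around each summit, beside windows of the same length 1000 bp to each side and beside all 200 bp tiles of chromosomes 1 to 19. A match describes the letters and not a bound site. The forkhead core TGTTTAC was in 3.45% of distal windows (3.28 to 3.62), in 2.76% of their flanks (2.66 to 2.87) and in 2.98% of tiles. In proximal windows it was in 1.60% (1.43 to 1.79), against 2.66% of flanks and 2.05% of the windows of 200 bp directly upstream of coding TSSs. The related letters TGTTTAT and TGTTTGT were less frequent at distal summits (4.63% and 5.85%) than in the flanks (5.13% and 7.45%). Distal summit windows were richer in GC than tiles (48.8% against 41.9%) and poorer in repeats (10.7% against 33.5% of bases), and proximal windows held 61.8% GC.

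The NEUROD-type E-box CAGATGG was the core with the largest difference between distal summits and flanks of the 18. It was in 14.99% of distal windows (14.7 to 15.3), 4.66% of flanks and 3.98% of tiles. E-boxes are bound by basic helix-loop-helix factors such as NEUROD and NEUROG proteins. Its share rose with height in every step, from 9.11% in the lowest decile of distal peaks to 23.3% in the highest, while the forkhead core stayed between 3.06% and 3.87%. In the 500 highest distal peaks, with fold enrichments of at least 10.3, the E-box was in 25.6% and the forkhead core in 5.40% (3.74 to 7.74; flanks 2.00%, 1.30 to 3.07). The E-box was present in 17.2% (15.4 to 19.2) of distal windows with a forkhead core and 14.9% (14.6 to 15.3) of those without. RFX (GTTGCCA, 4.28% against 2.10% of flanks), the E-box CAGCTG (17.2% against 9.49%), KLF/SP (GGGCGGG, 3.89% against 2.11%), ETS (1.29% against 0.862%), NRF1 (GCGCATG, 1.12% against 0.751%), CRE (TGACGTC, 0.664% against 0.470%), homeodomain (TAATTA, 8.41% against 5.9996%) and POU cores (ATGCAAA, 5.50% against 4.00%) were also more frequent at distal summits. The AP-1 core TGACTCA was at 3.36% against 3.40%. T-box (AGGTGTG, 3.08% against 4.91%), TCF/LEF (ATCAAAG, 2.80% against 3.25%), SOX (ACAATGG, 2.56% against 2.77%), YY1 (AAGATGG, 4.25% against 4.67%) and ZNF143 letters (ACTACAA, 1.60% against 1.90%) were less frequent there than in the flanks.

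**Figure D4:**
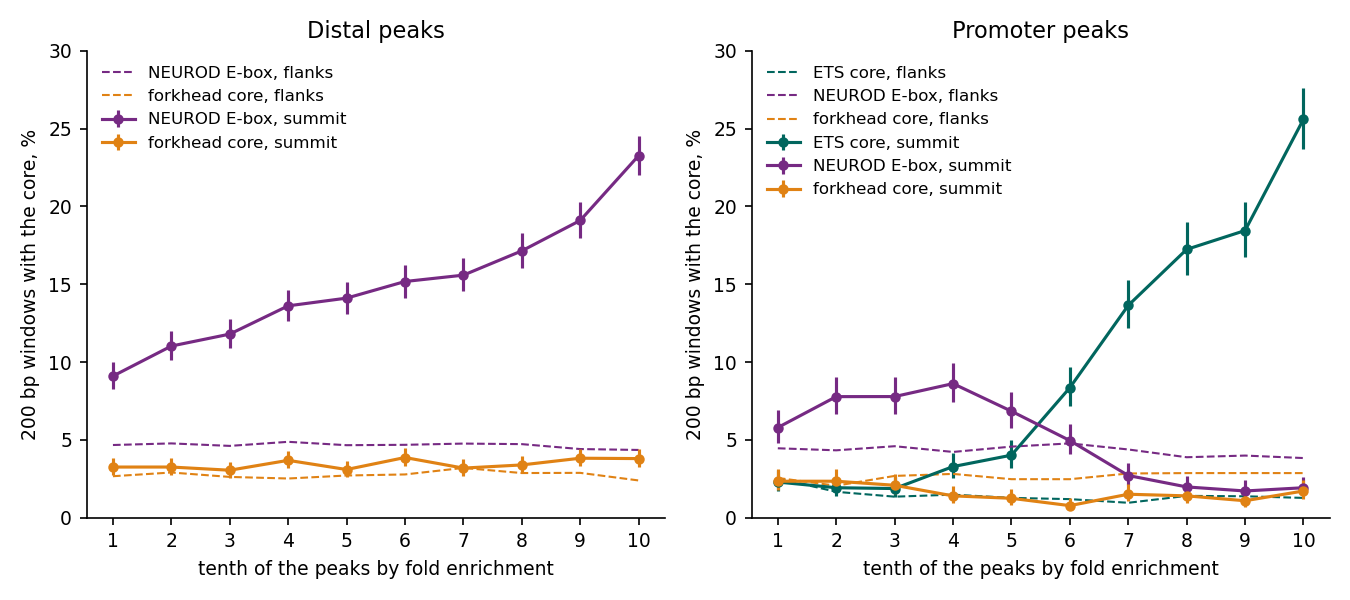
Share of 200 bp summit windows that held each core (points, with 95% intervals of the counts) and of flank windows (dashed lines), across deciles of distal (left) and proximal peaks (right) ordered by fold enrichment. The E-box rises from 9.11% to 23.3% at distal peaks and the ETS core from 2.30% to 25.6% at proximal ones, and the forkhead core stays below 4% in both.

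At promoters the ETS core had the largest ratio of summits to flanks of the 18 (6.63), and KLF/SP the largest difference. The ETS core was in 9.67% of proximal windows (9.26 to 10.1), 1.46% of flanks and 0.579% of tiles. It was in 7.61% of the windows of 200 bp directly upstream of all coding TSSs. Those windows end at the TSS, while summit windows are centred on the summit, so the 2 are not aligned. By height it went from 2.30% in the lowest decile of proximal peaks to 25.6% in the highest, and it was in 43.6% (39.3 to 48.0) of the 500 highest peaks of the list, of which 484 were proximal. Proximal peaks with the core had a median height of 12.3 (n = 1851), against 6.33 for those without (n = 17285). ETS factors are a large family that binds at promoters of many housekeeping genes. KLF/SP (27.7% against 4.82% of flanks), NRF1 (4.00% against 0.836%) and CRE cores (3.07% against 0.543%) were also more frequent at proximal summits. In the windows upstream of all coding TSSs, however, the shares were 27.7% for KLF/SP, 3.49% for NRF1 and 3.01% for CRE. The E-box CAGATGG was highest in decile 4 of proximal peaks (8.62%) and at 1.93% in the highest.

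Positions of the cores were then counted around the summits. Within 25 bp of distal summits there were 51.8 E-boxes per 1000 peaks, against 12.4 per 50 bp at 500 bp and beyond. The forkhead core was at 10.6 against 7.46 by the same measure. At proximal summits the ETS core was at 28.4 against 4.56, and the forkhead core at 4.55 against 6.39.

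**Figure D5:**
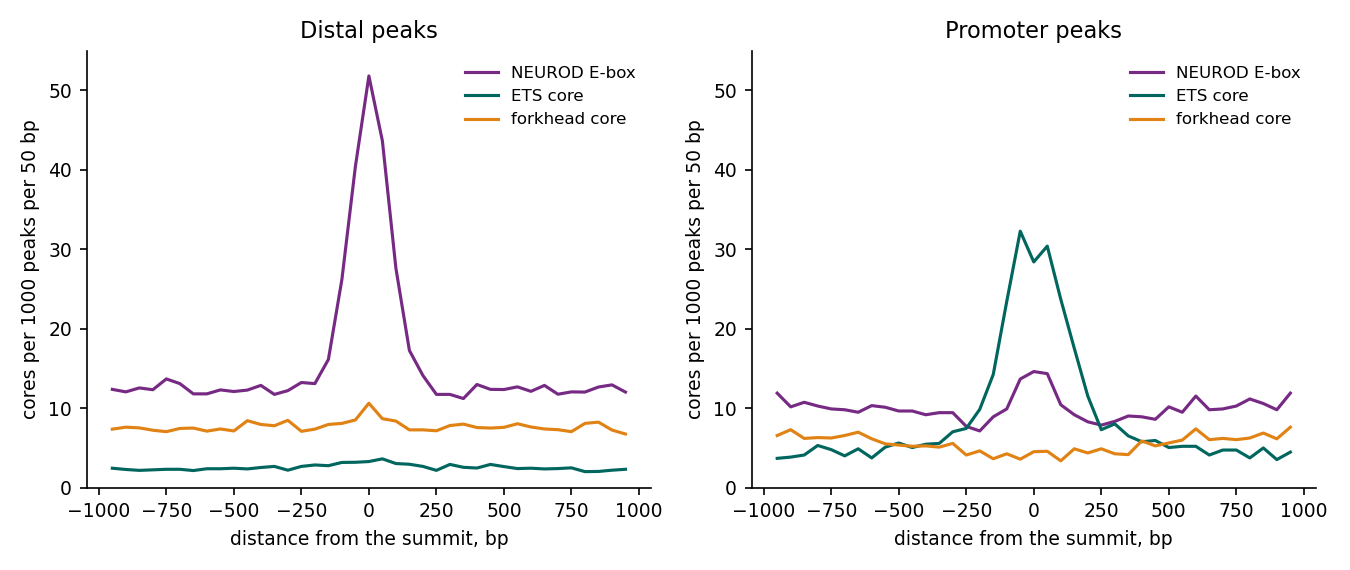
Number of cores per 1000 peaks in bins of 50 bp by distance from the summit, for distal (left) and proximal peaks (right). The E-box peaks at distal summits (51.8 in the central bin), the ETS core around proximal summits (28.4 in the central bin), and the forkhead core shows a small rise at distal summits (10.6) and none at proximal ones (4.55).

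Peaks were spread over all 19 chromosomes at 19.2 per Mb on chromosome 14 to 36.8 per Mb on chromosome 11, with 25.7 per Mb in all. Across the 19 chromosomes, peaks per Mb and coding genes per Mb had a Pearson r of 0.720, and distal peaks per Mb one of 0.449, given as a description since all chromosomes share the same libraries.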

How the data were processed

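ChIP-seq was made from cortices of wildtype mice at E15.5, with 2 ChIP and 2 input libraries for FOXP1. As the methods describe, the authors aligned single-end reads to GRCm38 (mm10) with BWA (0.7.15 in the submitters' processing notes), kept alignments with a mapping quality of 30, and called narrow peaks on merged replicates against input with MACS2 (2.2.7), without a model or local background, at an extension of 200 bp and a q-value of 0.01. Without a local background, the input reads at a place did not enter the height or p-value of its peak. No setting for duplicates is given in the sources used here. The deposited list holds a fold enrichment (ratio), −log10 of the p-value and of the q-value, and a score derived by the authors' caller, which was not used. A blocking-peptide control and single replicates were not analysed here.

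Background and reads per summit were recovered from these values under the Poisson model of MACS2, with a genome of 1.87e+09 bases, a pseudocount of 1 and a tolerance of 0.01 in −log10 p. Genes and TSSs came from GENCODE vM21, sequence, tRNA genes and VISTA elements from RefSeq for the same build. Coordinates count from 1. A distal peak was placed by its summit, and distances run from the summit to the nearest TSS. No test was run. Shares have 95% Wilson intervals, and heights exact Poisson intervals. Scripts (Python 3.11.15) were tested on simulated data. The named genes follow a rule: the 25 highest peaks, the 10 highest intronic and intergenic ones, the 10 genes with most distal peaks, the 8 largest clusters, Foxp1, Foxp2 and Foxp4, and of each gene list the 3 highest members and, where 5 or fewer, those without a peak. Some members that the rule names are not reported here. The list of peaks, the gene lists and the rule were chosen with earlier results of these data known.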

Additional observations from a re-analysis of the deposited data

Results flagged for a closer look

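The FOXP1 list held 799 peaks outside chromosomes 1 to 19, which entered none of the comparisons. The highest values of the whole list were the 2 peaks on the mitochondrial genome, both with a fold enrichment of 50.8, that is 400 reads over the summit, the most that fits a point at 1 read per position and strand. The wider one spanned 6562 bp. Chromosome X had 760 peaks (4.44 per Mb, against 25.7 on the autosomes) with a highest fold enrichment of 26.2, chromosome Y had 16 with a highest of 10.6, and unplaced or unlocalized sequences had 21 with a highest of 22.1. These were picked out because they are signal above background in places that no comparison used.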

How the results depend on the processing

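The share of proximal peaks depended most on the threshold of the list. It was 30.2% of all peaks and 50.9% when the 25192 peaks of −log10 p 15 or higher were kept. It was 27.0% with 1000 bp upstream of the TSS, 32.2% with 2000 bp upstream and 500 bp downstream, 23.6% with coding transcripts only, 24.4% where the summit itself had to lie in the promoter, and 27.8% with RefSeq transcripts, an alternative chosen after seeing the data. Adding chromosome X gave 30.6%. The number of coding genes with a proximal peak, 13183, ranged from 10753 to 13414 over 5 alternatives. The intronic share of distal peaks, 51.9%, was 46.2% with introns of coding genes only and 47.4% among the stricter peaks, and within its interval under the other 3 alternatives. The forkhead core was in 1.84% of distal windows of 100 bp and 6.34% of 400 bp, which follows from the length, and in 3.68% of the stricter peaks. Its share was 1.25 times that of flanks and 1.16 times that of all tiles. Clusters of 5 or more distal peaks numbered 1298, and 575 with a gap of 5000 bp, 2016 with 25000 bp and 38 among the stricter peaks. The depth is that of the list, read as merged libraries, so it says nothing of the spread between replicates. No paired analysis was possible because there was 1 list for this stage and no separate list per replicate was analysed here, and for the same reason no replicate could be left out.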
